A study of Mus musculus with 28 samples.

Results

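Prolactin, its receptor, the dopamine receptor that restrains its release, and peptides that pituitary cells release onto each other were followed through the whole pituitary glands of 28 C57BL/6J mice. The 7 genes, chosen by name from the count table of 32594 genes, were *Prl*, *Prlr*, *Drd2*, *Gal*, *Vip*, *Nmb* and *Nmbr*. The mice had arrived at an age of 8 weeks, and 16 were female and 12 male. Home cage controls had neither restraint nor paradoxical sleep deprivation (PSD). Restraint lasted 20 min, and PSD for 12 h on small platforms above water cut REM sleep and, in part, non-REM sleep. All mice, controls included, had first been adapted to the platforms in short daily sessions. Glands were taken 18 h after PSD ended and, in restrained mice, 10 min after restraint. There were 4 females in each of the 4 groups (control, PSD, restraint and PSD + restraint), while males numbered 4 controls, 2 with restraint, 3 with PSD and 3 with PSD + restraint. The labels give no oestrous stage, and a whole gland mixes all lobes and cell types, so fewer cells of a type and less RNA per cell cannot be told apart.

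Between 14024465 and 52948531 counts per mouse were assigned to genes, with a median of 33389717. PSD females 1, 2 and 3 had 18035775, 18727938 and 19532245 counts and PSD female 4 had 42243802. Control females had 23077710 to 47530774, and the part of depth in the values of PSD females was not tested. Levels are given as CPM, counts for every 1000000 counts of a library scaled by TMM. A gene was called where the level in one group was at least 25% above that in the other and edgeR's quasi-likelihood test, adjusted by Benjamini-Hochberg, gave 0.05 or less. The test covered 18059 genes in females, 18271 in males and 18936 over all mice, and 6 of the 7 genes passed its filter on low counts in each fit. *Nmbr* did not pass it. Each treatment was compared with the same home cage controls, so that those comparisons share their control mice. Male control mouse 1 stood apart with 11815 CPM summed over 5 markers of melanotropes, the cells of the intermediate lobe, against 51003 to 65313 CPM in the other male controls. Its sum of 6 posterior lobe markers was low as well, at 22.9 CPM against 51.2 to 70.1 CPM. PSD female 1 with 264 and PSD + restraint female 4 with 141 CPM stood apart in the sum of 8 forebrain and olfactory markers. Any other mouse had at most 76.4 CPM, the value of male control 1.

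Lactotropes are the anterior pituitary cells that make prolactin, the hormone known for milk production and maternal physiology. Their secretion is held down by hypothalamic dopamine acting on the D2 receptor, and oestrogen is known to raise the transcription of *Prl* and of *Gal*. Galanin, vasoactive intestinal peptide and neuromedin B are made in the gland itself as well as in the brain, and are known there as local signals between endocrine cells.

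On GRCm38, with GENCODE annotation, *Prl* (ENSMUSG00000021342) lies at chr13:27057570-27065205 on the plus strand and *Gal* (ENSMUSG00000024907) at chr19:3409915-3414544 on the minus strand. *Vip* (ENSMUSG00000019772) lies at chr10:5639218-5647617 on the plus strand and *Nmb* (ENSMUSG00000025723) at chr7:80902227-80905076 on the minus strand. *Prlr* (ENSMUSG00000005268) spans chr15:10177238-10349180, *Drd2* (ENSMUSG00000032259) chr9:49340627-49408177 and *Nmbr* (ENSMUSG00000019865) chr10:14705591-14770850, all on the plus strand. The 250 bases before the RefSeq transcription start (GRCm38.p6) are shown for the 3 genes with the largest differences between the sexes and for *Nmb*, the gene called after PSD. Capitals mark matches to the TATA box letters TATAAA on the gene's strand and, on either strand, to TATNCAT (an element of POU factors such as Pit-1), TGACG (the core of the cAMP response element) and GGTCA (an oestrogen receptor half-site).
Prl, chr13:27057320-27057569: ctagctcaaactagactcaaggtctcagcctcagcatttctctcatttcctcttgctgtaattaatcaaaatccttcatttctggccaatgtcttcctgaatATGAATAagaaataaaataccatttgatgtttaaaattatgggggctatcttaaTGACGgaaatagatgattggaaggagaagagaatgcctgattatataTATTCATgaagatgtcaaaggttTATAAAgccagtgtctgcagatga
Gal, chr19:3414545-3414794: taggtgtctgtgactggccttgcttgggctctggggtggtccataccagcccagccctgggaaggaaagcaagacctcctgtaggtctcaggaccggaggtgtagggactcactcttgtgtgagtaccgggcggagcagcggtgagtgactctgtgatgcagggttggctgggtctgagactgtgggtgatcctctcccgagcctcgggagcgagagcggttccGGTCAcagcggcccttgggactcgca
Vip, chr10:5638968-5639217: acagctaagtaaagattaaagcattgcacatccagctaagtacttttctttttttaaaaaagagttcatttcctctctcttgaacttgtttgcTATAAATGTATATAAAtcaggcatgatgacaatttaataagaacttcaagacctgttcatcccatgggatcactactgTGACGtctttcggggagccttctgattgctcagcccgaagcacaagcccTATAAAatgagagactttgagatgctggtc
Nmb, chr7:80905063-80905312: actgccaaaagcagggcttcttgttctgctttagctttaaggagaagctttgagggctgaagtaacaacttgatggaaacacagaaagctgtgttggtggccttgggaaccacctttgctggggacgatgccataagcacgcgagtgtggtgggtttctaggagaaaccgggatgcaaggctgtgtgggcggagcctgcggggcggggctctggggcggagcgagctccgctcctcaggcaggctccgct
The *Prl* window held a TATA box 24 to 19 bases before the start, TATNCAT matches at 148 to 142 and 47 to 41 bases before it, and 1 TGACG. In *Vip* there were 3 TATA matches, 1 TATNCAT match that shares bases with the first 2 of them, and 1 TGACG. *Gal* held a single GGTCA, 26 to 22 bases before the start, and *Nmb* held no match to these letters. Of 32851 windows of this length, 7.59% held TATAAA, 7.92% TATNCAT, 17.8% TGACG and 35.2% GGTCA. These matches describe letters and not sites in use.

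*Prl* was the most abundant of these transcripts by a wide margin. It took 9.46% to 21.2% of all counts in females (median 15.3%) and 3.21% to 4.48% in males (median 3.82%). Levels can be set between genes only per kb of transcript, here the mean length of a gene's annotated transcripts. On that scale *Prl* averaged 182862 CPM per kb in females and 43933 in males. *Drd2*, the dopamine receptor through which prolactin release is restrained, followed with 58.2 and 44.9 CPM per kb. *Gal* averaged 37.4 CPM per kb in females but 9.35 in males, *Prlr* 20.8 and 27.5, *Nmb* 18.6 and 20.8, and *Vip* 1.15 and 0.42. *Nmbr*, the receptor of neuromedin B, was barely counted, with 0 to 10 counts per mouse (median 3.5), none in 4 of 28 mice, and at most 0.248 CPM. Its group means ran from 0.0449 CPM in restrained females to 0.155 CPM in restrained males, and no direction can be read at this depth. All 5 lactotrope markers (*Prl*, *Drd2*, *Pou1f1*, *Esr1*, *Prlr*) were counted in every mouse.

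Ranked by group mean, *Prl* ran from control females (192450 ± 31196 CPM, SD, n = 4) through restrained (168235 ± 37505), PSD + restraint (147257 ± 9520) and PSD females (120737 ± 33442) to the 4 male groups, at 39746 ± 1693 after PSD (n = 3), 39682 after restraint (n = 2), 38154 ± 3167 in controls (n = 4) and 33968 ± 2695 after PSD + restraint (n = 3). Neighbours in this order overlapped except at the step from females to males. For *Nmb* the 4 groups with PSD came first, and the only neighbours without overlap were the last group with PSD and the first without. The order of the other genes had overlapping neighbours throughout.

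**Figure D1:**
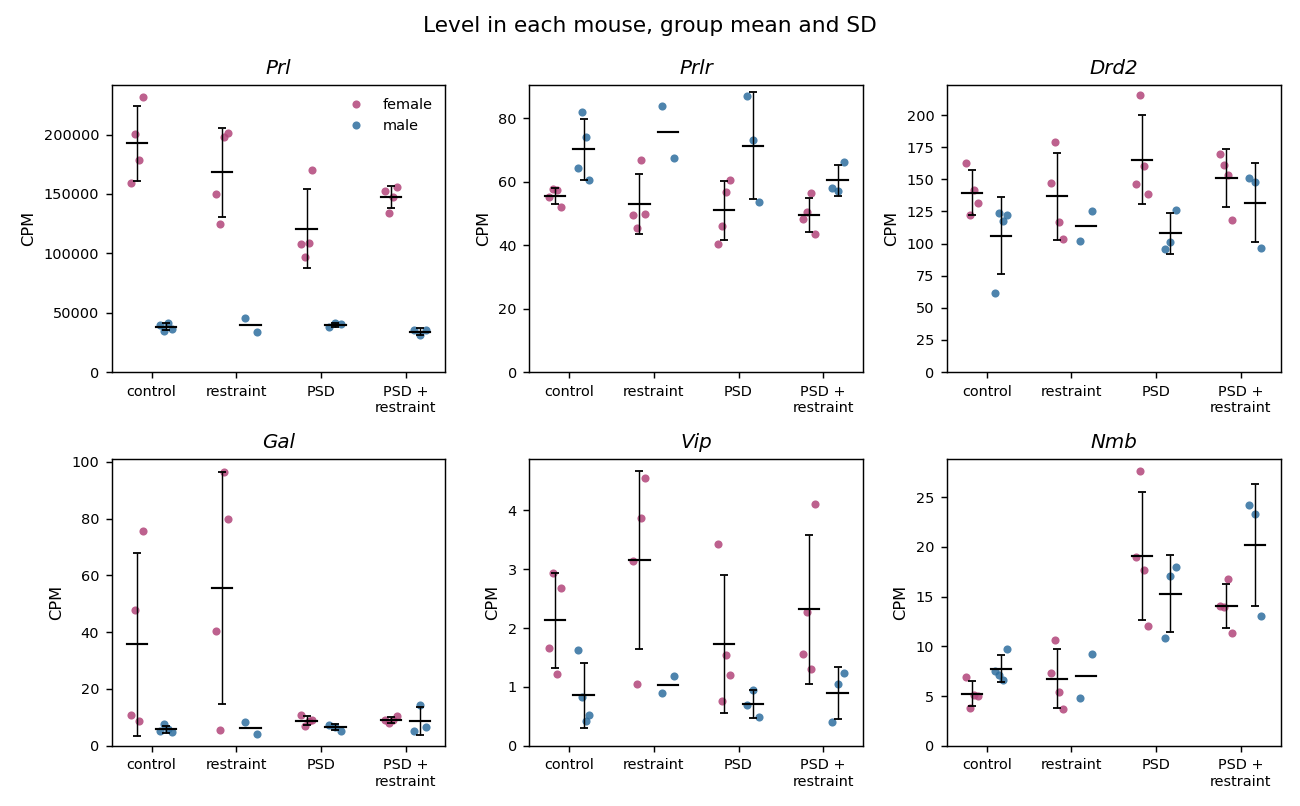
Level of 6 of the genes in each mouse, by treatment on the x axis and in CPM on the y axis. Points are mice, females left and males right within each treatment, black lines are group means and bars the SD, drawn where a group had 3 or more mice. Prl was higher in every female than in every male, Gal reached 40.2 to 96.4 CPM in 5 of the 8 females without PSD, and Nmb was higher in all PSD mice than in all controls of the same sex.

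The sexes differed in 5 of the 6 genes tested over all mice, a comparison that called 14.9% of all genes. Prolactin, galanin, VIP and the D2 receptor were higher in females, and the prolactin receptor was lower. *Prl* ranged from 96746 to 231705 CPM in the 16 females (median 153867) and from 30866 to 45864 CPM in the 12 males (median 37087). No female overlapped any male, and the log2 difference was 2.04 (SE 0.10, adjusted p = 1.25e-14). *Prlr*, the receptor through which the gland itself can sense prolactin, ran the other way, with 40.4 to 66.7 CPM in females (median 51.3) and 53.6 to 87.1 CPM in males (median 66.8). The ranges overlapped, and the log2 difference was -0.40 (SE 0.07, adjusted p = 0.000128). *Drd2* lay between 103 and 216 CPM in females (median 147) and between 61.2 and 151 CPM in males (median 120.0). Its log2 difference of 0.37 (SE 0.11, adjusted p = 0.00775) lay just above the threshold, and without male control 1 it was 0.32 (adjusted p = 0.00950), barely on it.

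*Gal* and *Vip* were the peptides with a difference between the sexes. *Gal* covered 5.61 to 96.4 CPM in females (median 9.87) and 4.32 to 14.3 CPM in males (median 6.18), so the groups overlapped at the lower end. The log2 difference was 1.51 (SE 0.43, adjusted p = 0.00760). It lay mostly in mice without PSD, where *Gal* averaged 45.6 CPM in females and 6.03 CPM in males. With PSD the means were 9.02 CPM in females (6.88 to 10.9) and 7.62 CPM in males (5.31 to 14.3), with overlapping ranges. *Vip* was low in all mice, at 0.764 to 4.54 CPM in females (median 1.97) and 0.401 to 1.63 CPM in males (median 0.865). Its log2 difference was 1.36 (SE 0.26, adjusted p = 0.000210). *Nmb* did not pass the test (log2 difference -0.23, SE 0.16, adjusted p = 0.297), with 3.66 to 27.7 CPM in females and 4.78 to 24.2 CPM in males. With a score of intermediate and posterior lobe genes as a covariate, the *Drd2* difference was 0.18 (adjusted p = 0.0180), below the fold threshold. *Pax7*, a melanotrope marker, was itself higher in females by 0.57 (SE 0.17, adjusted p = 0.0123), as was *Esm1*, by 0.60 (adjusted p = 0.00669), 2 of 5 melanotrope markers called. The part of these markers in the difference in *Drd2* between the sexes was otherwise not tested.

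Among the home cage controls alone, 4 females against 4 males, edgeR called *Prl* and *Gal*, in a comparison that called 10.7% of genes. Control females had 159082, 200640, 178373 and 231705 CPM of *Prl* and control males 39960, 34768, 41601 and 36286 CPM. Every control female exceeded every control male, by a log2 difference of 2.34 (SE 0.16, adjusted p = 7.93e-10). For *Gal*, control females had 10.8, 47.8, 8.57 and 75.7 CPM and control males 5.14, 7.57, 5.75 and 4.95 CPM. Here too the groups did not overlap (log2 difference 2.61, SE 0.62, adjusted p = 0.00522), although females 1 and 3 lay close to the highest male. *Vip* had a log2 difference of 1.26 (adjusted p = 0.0880), which passed without male control 1 (1.80, adjusted p = 0.0323), by DESeq2 (1.30, adjusted p = 0.0470), and with the lobe score (1.98, adjusted p = 0.00677) or the forebrain score (1.53, adjusted p = 0.00714) as covariate. *Prlr* had -0.34 (adjusted p = 0.106), which passed with the compared groups fitted alone (adjusted p = 0.0413). The values were for *Drd2* 0.40 (adjusted p = 0.197) and for *Nmb* -0.55 (adjusted p = 0.219).

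**Figure D2:**
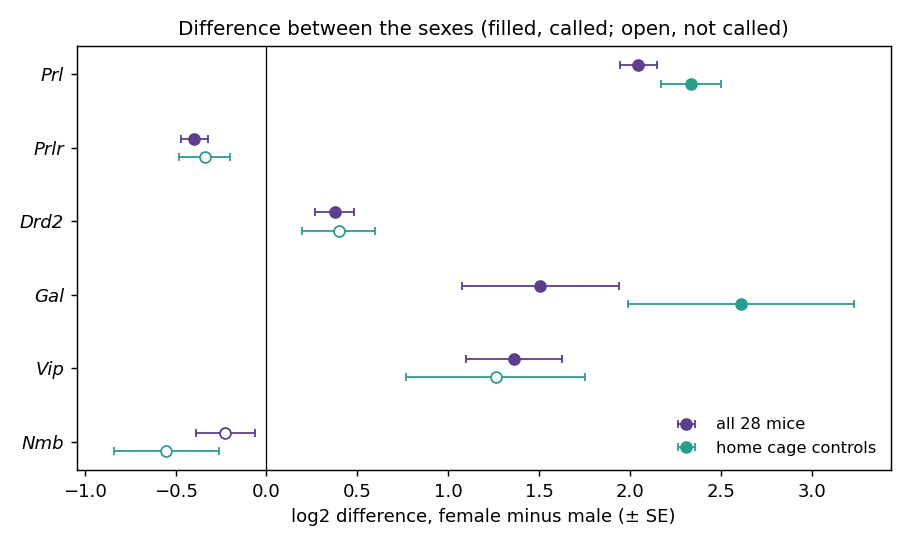
Log2 difference between females and males for the 6 genes tested, from the edgeR fits, with the standard error as bars. Purple points are from all 28 mice, green points from the home cage controls, and filled points were called. Prl, Gal, Vip and Drd2 lie to the right (higher in females) and Prlr and Nmb to the left.

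Genes that work with these members also differed between the sexes, in the comparison over all mice that called 14.9% of all genes. Of 8 receptors for the peptides, 6 were tested over all mice, 2 were higher in females and 1 lower. The galanin receptor genes *Galr1* and *Galr3* were higher in females, by 1.81 (SE 0.44, adjusted p = 0.00191) and 1.42 (SE 0.17, adjusted p = 2.14e-07), and the PACAP receptor *Adcyap1r1* was lower, by -0.71 (SE 0.15, adjusted p = 0.000389). *Galr1* averaged 0.611 ± 0.508 CPM (SD, n = 4) in control females, which is a low level. Of 18 regulators of lactotropes, all tested, 4 were higher and 3 lower. The highest difference was that of *Pgr*, the oestrogen-induced progesterone receptor, at 1.501 (SE 0.13, adjusted p = 4.10e-10), followed by *Greb1*, another oestrogen-induced gene, at 1.45 (SE 0.15, adjusted p = 1.19e-08). The lowest was that of the angiotensin receptor *Agtr1a*, at -1.76 (SE 0.11, adjusted p = 1.65e-12).

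In prolactin receptor signalling, 2 of 10 genes were higher in females and 1 lower over all mice, beside 14.9% of all genes called. *Stat5b*, a transcription factor activated by the receptor, differed by 0.45 (SE 0.07, adjusted p = 7.88e-06) and *Socs1*, a feedback inhibitor, by 0.83 (SE 0.23, adjusted p = 0.00619). *Cish*, a STAT5 target and feedback inhibitor, differed by -0.34 (SE 0.08, adjusted p = 0.00109). Of 14 dopamine receptor and D2 signalling genes, 13 were tested, 2 were higher and 4 lower. The D4 receptor gene *Drd4* had the lowest value of the list, at -5.26 (SE 0.24, adjusted p = 1.84e-15), with 0.0973 ± 0.0347 CPM (SD, n = 4) in control females and 1.99 ± 0.285 CPM (SD, n = 4) in control males. Of 16 related peptides, 12 were tested, 2 were higher and 4 lower. *Grp*, gastrin-releasing peptide and the closest relative of *Nmb* in this list, differed by -2.51 (SE 0.18, adjusted p = 2.47e-11), and the tachykinin gene *Tac1* by -1.90 (SE 0.27, adjusted p = 3.46e-06). The median log2 differences were 0.30 for the peptide receptors, 0.13 for the regulators, 0.02 for prolactin receptor signalling, -0.04 for the dopamine list and 0.29 for the related peptides, beside 0.01 for all genes tested.

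Restraint alone called none of the 6 genes by edgeR in females, in males or over all mice. It called 0.543%, 0.296% and 1.14% of all genes in these fits, DESeq2 called none of the 6 either, and none of the 18 values had an unadjusted p under 0.05. In females, restrained mice had 149879, 124253, 197743 and 201064 CPM of *Prl*, within or below the range of the controls. *Gal* was 40.2, 5.61, 96.4 and 79.9 CPM after restraint, with 3 mice at 40.2 CPM or more and mouse 2 below all controls. The log2 differences in females ran from -0.19 (*Prl*) to 0.65 (*Gal*) and in males, with 2 restrained mice, from -0.13 (*Nmb*) to 0.25 (*Vip*). Restraint averaged over mice with and without PSD, a contrast added after the data were seen, also called none of the 6, against 1.81% of all genes in females, 0.761% in males and 2.53% over all mice. Neither did PSD + restraint against PSD, which called 0.941%, 0.285% and 2.01% of genes in the same order. The interaction of PSD and restraint called no gene (0%) by edgeR, with 766, 702 and 743 genes at an unadjusted p under 0.05 and none of the 6 among them.

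After PSD, *Nmb* was the gene of this group that rose. PSD alone called 0.0277% of all genes in females and 1 of these 6. Control females had 6.94, 3.85, 5.16 and 5.02 CPM of *Nmb* (5.24 ± 1.28, SD, n = 4) and PSD females 18.96, 27.7, 17.7 and 12.1 CPM (19.1 ± 6.46). All PSD females lay above all controls, and the log2 difference was 1.85 (SE 0.29, adjusted p = 0.0317), the fifth smallest p of all genes. The adjusted p lay near the threshold. With 1 female left out at a time the log2 difference stayed between 1.62 and 2.02, but the call held in 5 of 16 fits, those without PSD mouse 4, PSD + restraint mouse 4 or restrained mouse 2, 3 or 4, and was lost in the fits without any other female, where the adjusted p reached 0.166. It was also lost with edgeR's robust option (adjusted p = 0.0547), with a forebrain score as covariate (0.0591) and with the compared groups fitted alone (0.101).

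The combined treatment gave the same direction. PSD + restraint called 2.2% of all genes in females and 2.56% in males, and *Nmb* alone of the 6 genes in each sex. PSD + restraint females had 14.1, 14.0, 16.8 and 11.3 CPM of *Nmb* (14.0 ± 2.22, SD, n = 4), again all above the controls. The log2 difference was 1.42 (SE 0.29, adjusted p = 0.0155). Control males had 7.54, 7.12, 6.64 and 9.75 CPM (7.76 ± 1.37, n = 4) and PSD + restraint males 24.2, 23.3 and 13.1 CPM (20.2 ± 6.17, n = 3). No treated male overlapped a control (log2 difference 1.39, SE 0.25, adjusted p = 0.0126). The call was lost without female control 2 (1.31, adjusted p = 0.0520) or 4 (1.39, adjusted p = 0.0566) in females, and without PSD + restraint mouse 1 (1.25, adjusted p = 0.0707) or 2 (1.28, adjusted p = 0.0651) in males. In males it was also lost with the replicate number as a block (1.52, adjusted p = 0.0616).

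PSD alone in males, which called 0.00547% of all genes, did not call *Nmb*. The 3 PSD males had 10.8, 17.1 and 18.0 CPM (15.3 ± 3.90) and lay above all 4 controls, with a log2 difference of 0.99 (SE 0.25, adjusted p = 0.266). Over all 28 mice *Nmb* was called after PSD (1.46, SE 0.22, adjusted p = 0.00183) and after PSD + restraint (1.38, SE 0.22, adjusted p = 0.000113), and these calls held in all 28 fits that left out 1 mouse. These comparisons called 0.671% and 5.46% of all genes. Restrained mice with and without PSD differed by 1.24 over all mice (SE 0.24, adjusted p = 0.0310), in a comparison that called 0.0951% of genes. Within a sex edgeR did not call it, at 1.04 in females (adjusted p = 0.183) and 1.52 in males (adjusted p = 0.205), where it called 0.0332% and 0.00547% of genes. DESeq2 called *Nmb* there in females (1.05, adjusted p = 0.0268) and in males (1.53, adjusted p = 0.000677). Over all mice edgeR's call held in 19 of 28 fits that left out 1 mouse, with an adjusted p of up to 0.0987. The 9 mice whose omission ended it were restrained females 1, 3 and 4, restrained male 2, PSD + restraint females 1, 2 and 3 and PSD + restraint males 1 and 2.

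Because restraint called none of these genes, the effect of PSD was also averaged over restrained and unrestrained mice, a contrast added after the data were seen. It called 2.88% of all genes in females, 0.454% in males and 2.52% over all mice. *Nmb* was called in each of the 3, at 1.45 in females (SE 0.20, adjusted p = 0.00380), 1.25 in males (SE 0.20, adjusted p = 0.0285) and 1.35 over all mice (SE 0.16, adjusted p = 1.65e-05). The male call was lost with the replicate block (1.33, adjusted p = 0.0829) and when male control 3, restrained male 2, PSD male 3 or PSD + restraint male 1 or 2 was left out (1.07 to 1.22, adjusted p = 0.160 at most). The 8 females with PSD had 11.3 to 27.7 CPM (median 15.4) and the 8 without 3.66 to 10.7 CPM (median 5.31). The 6 males with PSD had 10.8 to 24.2 CPM (median 17.5) and the 6 without 4.78 to 9.75 CPM (median 7.33). In neither sex did a mouse with PSD overlap one without.

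Markers of the intermediate lobe moved with *Nmb*. The 5 melanotrope markers, none of them at 0 in any mouse, summed to 37835 to 70042 CPM in control females, 40682 to 97222 after restraint, 72048 to 168825 after PSD and 72365 to 104489 after PSD + restraint. In males the sums were 11815 to 65313 CPM in controls, 40353 to 70262 after restraint, 67652 to 104157 after PSD and 68067 to 129597 after PSD + restraint. None of the 5 was called in these comparisons within a sex, and 4 of 5 (*Pcsk2*, *Pomc*, *Oacyl*, *Esm1*) were called higher after PSD + restraint over all mice, among them *Pomc* by 0.99 (SE 0.27, adjusted p = 0.0157). The averaged PSD contrast called 2 of 5 in females, *Pcsk2* and *Pomc*. *Pomc* makes up most of the sum and also marks corticotropes, whose 4 markers moved in the same way, from 36676 to 68297 CPM in control females to 70383 to 164633 after PSD. Of the markers not on the corticotrope list, *Pcsk2* averaged 796 CPM in control, 1671 in PSD and 1413 in PSD + restraint females, and *Pax7* 56.1, 80.1 and 66.7 CPM. With the score of intermediate and posterior lobe genes as a covariate, the averaged PSD effect on *Nmb* was 1.06 in females (adjusted p = 0.00498) and 1.18 in males (adjusted p = 0.0242). In that fit PSD + restraint gave 0.83 in females (adjusted p = 0.0905), which did not pass, and PSD alone 1.31 (adjusted p = 0.0246). Male control 1, with the lowest marker sum, had 7.54 CPM of *Nmb*, inside the range of its group, and without it PSD + restraint males differed from controls by 1.38 (adjusted p = 0.0202). Without PSD female 1, with the highest forebrain sum, PSD females differed by 1.84 (adjusted p = 0.0667).

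**Figure D3:**
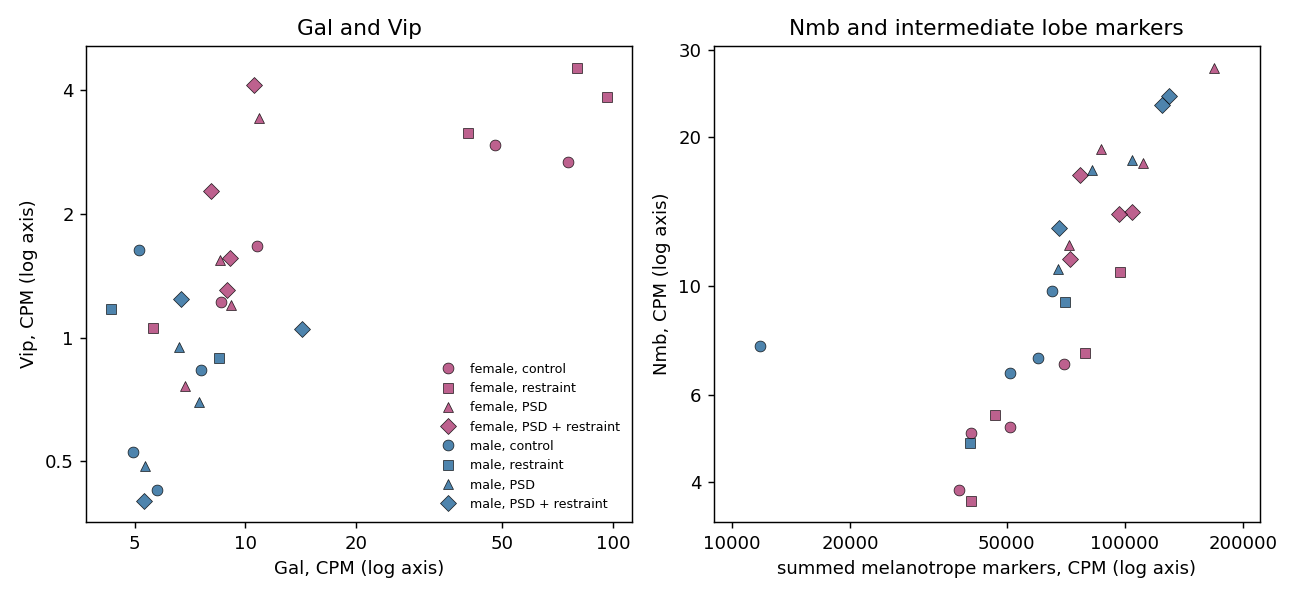
Left, Vip against Gal, and right, Nmb against the summed level of 5 melanotrope markers, both in CPM on log axes, 1 point per mouse (pink, female; blue, male; symbol, treatment). Gal above 40 CPM occurred in 5 mice, all females without PSD, which had 2.68 to 4.54 CPM of Vip, and the male control with the lowest marker sum lies far left at 7.54 CPM of Nmb.

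*Nmb* overlaps *Sec11a*, a signal peptidase subunit gene on the same strand, over 163 of its 793 exonic bases in GENCODE (20.6%). Reads wholly within this stretch cannot be told apart. In the counting mode the paper names, HTSeq's intersection-nonempty, such reads are given to neither gene. The UCSC gene models used for counting may differ from the GENCODE exons. *Sec11a* had 81.4 ± 9.07 CPM (SD, n = 4) in control females and 69.8 ± 5.42 CPM in PSD females. Its log2 difference was -0.22 after PSD in females (adjusted p = 0.169) and 0.00377 after PSD + restraint in males (adjusted p = 0.989), neither of them called. *Prlr* shares 1.32% of its exonic bases with *Gm21973*, and *Prl* shares none with the antisense *Gm47888*.

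*Gal* fell in females when the PSD effect was averaged over restrained and unrestrained mice. Control females had 10.8, 47.8, 8.57 and 75.7 CPM (35.7 ± 32.2, SD, n = 4), restrained females 40.2, 5.61, 96.4 and 79.9 CPM (55.5 ± 40.8), PSD females 10.9, 6.88, 8.56 and 9.16 CPM (8.88 ± 1.66) and PSD + restraint females 9.09, 8.05, 8.93 and 10.6 CPM (9.16 ± 1.05). Without PSD the females split widely, with 5 mice at 40.2 CPM or more and 3 at 10.8 CPM or less. All 8 females with PSD lay in the lower range. Males had 4.32 to 14.3 CPM whatever the treatment.

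Neither PSD (log2 difference -1.99, SE 0.72, adjusted p = 0.158) nor PSD + restraint (-1.96, SE 0.72, adjusted p = 0.142) alone passed edgeR's test for *Gal* in females. The averaged contrast did, at -2.30 (SE 0.51, adjusted p = 0.0268). In males it was 0.32 (SE 0.25, adjusted p = 0.565). PSD + restraint against restraint gave -2.61 in females (SE 0.72, adjusted p = 0.201), which passed by DESeq2 (adjusted p = 0.0412) and without restrained female 2 (-3.00, adjusted p = 0.0493). The female call was lost with female control 2 or 4, restrained female 4 or PSD + restraint female 1 or 2 left out, with values of -1.95 to -2.30 and an adjusted p of up to 0.0616. It was lost as well with the lobe score as covariate (-1.23, adjusted p = 0.340) and with the forebrain score (-2.38, adjusted p = 0.0602). Over all mice the averaged contrast gave -1.29 (SE 0.42, adjusted p = 0.0554). This passed by DESeq2 (-1.26, adjusted p = 0.0237) and in 7 of 28 fits that left out 1 mouse (female control 1 or 3, restrained female 2, male control 1, restrained male 3, PSD male 1 or PSD + restraint male 2), where the adjusted p was 0.0226 to 0.0466.

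Among the galanin receptors, *Galr1* and *Galr3* were called lower in females with PSD, each in a different comparison, and *Galr2* was not called. *Galr1*, the receptor that signals through inhibitory G proteins, had 0.611 ± 0.508 CPM in control, 0.776 ± 0.547 in restrained, 0.114 ± 0.111 in PSD and 0.147 ± 0.0939 CPM in PSD + restraint females (SD, n = 4 each). It was called in females in the averaged PSD contrast, at -2.24 (SE 0.54, adjusted p = 0.0327), beside 2.88% of all genes. These levels amount to few reads. After PSD + restraint over all mice edgeR gave *Galr1* -1.72 (SE 0.60, adjusted p = 0.0628), which was not called. *Galr3* had 6.28 ± 3.57, 3.81 ± 1.11, 3.75 ± 0.280 and 2.62 ± 0.438 CPM in the same order. PSD + restraint called *Galr3* lower in females, at -1.24 (SE 0.31, adjusted p = 0.0463), and over all mice, at -0.96 (SE 0.23, adjusted p = 0.00626). These comparisons called 2.2% and 5.46% of all genes. *Galr2* had a log2 difference of 0.31 after PSD (adjusted p = 0.633) and 0.66 after PSD + restraint (adjusted p = 0.250) in females.

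*Vip* was not called in any treatment comparison. Control females had 1.67, 2.94, 1.22 and 2.68 CPM, restrained females 3.14, 1.06, 3.86 and 4.54 CPM, PSD females 3.43, 0.764, 1.54 and 1.198 CPM and PSD + restraint females 1.57, 2.28, 1.31 and 4.11 CPM. Among the 8 females without PSD, the 5 with the most *Vip* were the 5 with the most *Gal*, namely controls 2 and 4 and restrained mice 1, 3 and 4. With PSD the highest *Vip* values, 3.43 and 4.11 CPM, came from mice with 10.9 and 10.6 CPM of *Gal*. The averaged PSD effect on *Vip* was -0.36 in females (SE 0.35, adjusted p = 0.527) and -0.28 in males (SE 0.36, adjusted p = 0.750).

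*Prl* was not called by edgeR in any treatment comparison. PSD females had 107425, 96746, 108513 and 170264 CPM, and 3 of the 4 lay below every control female. The log2 difference was -0.67 (SE 0.18, adjusted p = 0.115). Mouse 4 was the exception and also the deepest library of its group, at 42243802 counts against at most 19532245 in the others. Without this mouse the value was -0.88 (adjusted p = 0.0263), which passed. PSD + restraint females had 152041, 133921, 147372 and 155694 CPM, all below the lowest control of 159082 CPM, with a log2 difference of -0.38 (SE 0.18, adjusted p = 0.259). The averaged contrast gave -0.43 in females (SE 0.13, adjusted p = 0.0574), and this passed without female control 1, restrained female 2 or PSD female 4 (-0.48 to -0.53, adjusted p = 0.0332 at most), by DESeq2 (-0.43, adjusted p = 0.0118) and with the replicate number as a block (adjusted p = 0.0277).

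Other tools and covariates moved the *Prl* values in females. DESeq2 called *Prl* after PSD at -0.40 (adjusted p = 0.0165), a shrunken fold change. Its fold changes for a treatment against control and for sex over all mice were shrunken, and those of its other contrasts were not. With the lobe score as covariate PSD gave -0.38 (adjusted p = 0.376) and PSD + restraint 0.02 (adjusted p = 0.978), a change of direction for the latter. *Prl* is counted as a share of all RNA, and the summed melanotrope markers were higher in the same mice, as given above. The thyrotrope sum also moved, from 2993 to 4336 CPM in control females to 2174 to 2369 CPM after PSD. *Cga*, the common subunit of the glycoprotein hormones, was called lower there (-0.76, SE 0.11, adjusted p = 0.0257), 1 of 5 thyrotrope markers. *Cga* also counts in the gonadotrope sum, which went from 3337 to 4520 CPM in control females to 2559 to 2835 CPM after PSD. After PSD over all mice the remaining thyrotrope markers gave 0.33 (*Gata2*), 0.17 (*Dio2*), 0.12 (*Trhr*) and -0.12 (*Tshb*), none called. The part of these lists in the *Prl* values was not tested beyond these fits. In males PSD gave 0.07 (SE 0.10, adjusted p = 0.8996) and PSD + restraint -0.16 (SE 0.10, adjusted p = 0.436).

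Neither the dopamine receptor nor the prolactin receptor was called in a treatment comparison. *Drd2* had 163, 122, 142 and 132 CPM in control females, 147, 216, 161 and 139 CPM after PSD and 170.1, 161, 154 and 119 CPM after PSD + restraint, with overlapping ranges. The log2 differences were 0.25 after PSD (SE 0.17, adjusted p = 0.418) and 0.12 after PSD + restraint (SE 0.17, adjusted p = 0.732). Control males had 61.2, 124, 118 and 122 CPM, where mouse 1, the one with the low melanotrope sum, stood apart. PSD + restraint males had 151, 148 and 96.2 CPM, a log2 difference of 0.32 (SE 0.22, adjusted p = 0.489) and of 0.13 without that control (adjusted p = 0.719). With the lobe score as covariate every *Drd2* value after PSD or PSD + restraint turned negative, from -0.28 in PSD + restraint females to -0.04 for the averaged contrast in males, and none was called. *Prlr* log2 differences from control lay between -0.15 and -0.06 in females and between -0.21 and 0.11 in males.

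**Figure D4:**
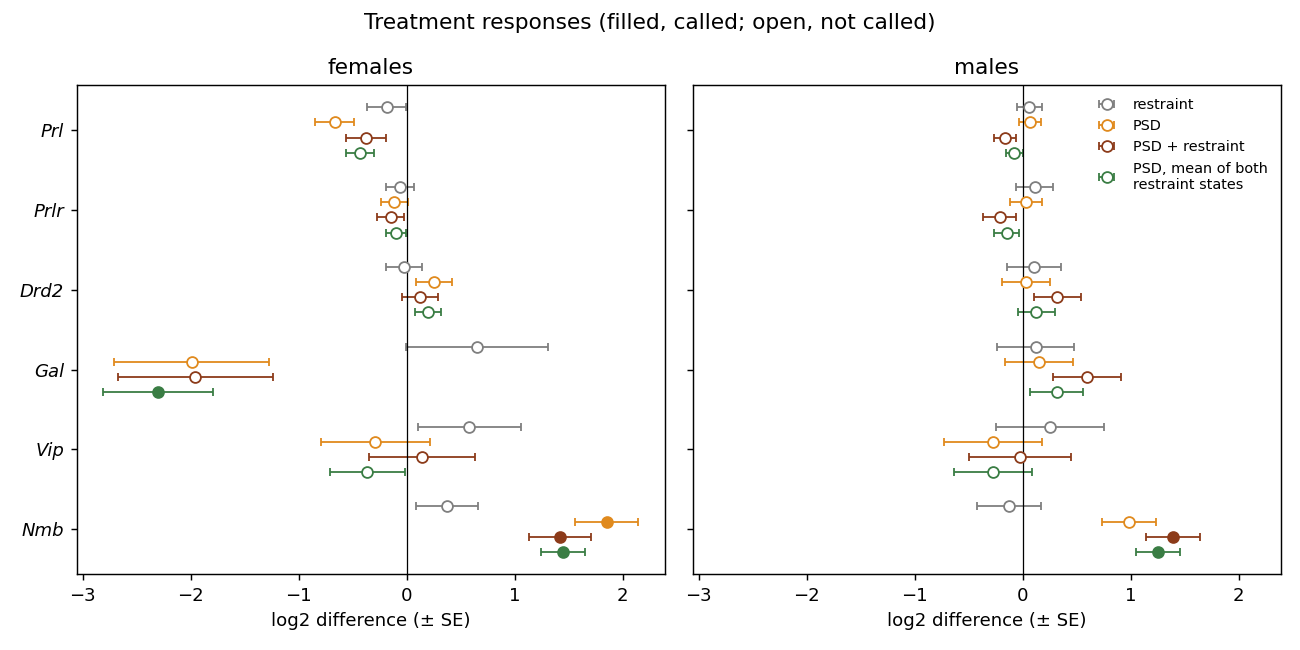
Log2 differences with standard errors for 6 genes in females (left) and males (right), for restraint, PSD and PSD + restraint against home cage controls and for PSD averaged over restrained and unrestrained mice. Filled points were called by edgeR. Nmb lies to the right in both sexes wherever PSD was given. In females Gal lies to the left wherever PSD was given and to the right after restraint alone. Restraint alone has no filled point.

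Whether the sexes differed in their response was tested directly, and edgeR called none of the 6 genes. These comparisons called no gene (0%) for restraint, PSD or PSD + restraint, with 804, 2038 and 1363 genes at an unadjusted p under 0.05, and DESeq2 called none of the 6 genes in them. The female minus male difference of the PSD response was -0.73 for *Prl* (SE 0.23, adjusted p = 0.302), -2.14 for *Gal* (SE 0.90, adjusted p = 0.411) and 0.86 for *Nmb* (SE 0.42, adjusted p = 0.461). For PSD + restraint it was -0.22 for *Prl* (adjusted p = 0.882), -2.57 for *Gal* (adjusted p = 0.581) and 0.02 for *Nmb* (adjusted p = 0.999). For the averaged PSD response, which called 0.819% of all genes, *Gal* came nearest, at -2.62 (SE 0.69, adjusted p = 0.0601). It passed without female control 1 or 3 or restrained female 2 (adjusted p = 0.0126 to 0.0352) and by DESeq2 (-2.61, adjusted p = 0.0111).

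The wider lists followed the treatments in few genes. No regulator of lactotropes was called in any treatment comparison with controls, in either sex or over all mice. After PSD in females *Pgr* had a log2 difference of -0.74 (SE 0.24, adjusted p = 0.140) and *Greb1* of -0.94 (SE 0.27, adjusted p = 0.127). In prolactin receptor signalling 2 of 10 genes, *Cish* (0.48, SE 0.07, adjusted p = 0.00338) and *Socs7* (0.41, SE 0.06, adjusted p = 0.00295), both feedback inhibitors of cytokine receptors, were higher in PSD + restraint males, a comparison that called 2.56% of all genes. Over all mice the same treatment gave *Cish* 0.27 (adjusted p = 0.0969) and *Socs7* 0.27 (adjusted p = 0.00242). Both lay below the fold threshold and were not called. Of the D2 signalling list, 1 of 11 genes tested in females, the potassium channel gene *Kcnj3*, was called in the averaged PSD contrast (0.37, SE 0.10, adjusted p = 0.0402), beside 2.88% of all genes.

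Among the related peptides *Calca*, which encodes calcitonin and CGRP, rose after PSD + restraint in females (1.66, SE 0.39, adjusted p = 0.0313) and in males (1.77, SE 0.22, adjusted p = 0.00127). It was also called after restraint over all mice (1.39, SE 0.24, adjusted p = 0.000876). *Cartpt*, the CART peptide gene, was called in PSD + restraint males (0.84, SE 0.20, adjusted p = 0.0432) and in the averaged PSD contrast in females (0.78, SE 0.19, adjusted p = 0.0326). *Cck*, cholecystokinin, was called in the latter too (1.27, SE 0.28, adjusted p = 0.0269), and its averaged PSD response differed between the sexes by 2.38 (SE 0.60, adjusted p = 0.0477). These were 1 of 10 related peptides tested after PSD + restraint in females, 2 of 11 in males and 2 of 10 for the averaged contrast in females, beside 2.2%, 2.56% and 2.88% of all genes. The forebrain and olfactory sum was highest in PSD female 1 and PSD + restraint female 4, as given above, and 1 of 5 forebrain markers tested, *Slc17a7*, was called in that contrast as well (1.22, SE 0.32, adjusted p = 0.0390). Its part in the *Cck* value was not tested.

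The genes most like each member were ranked by Pearson's r of log2 CPM over the 28 mice, among 18935 other genes, as a description that mixes sex, treatment and depth. *Prl* was most like *Eif2s3x* (r = 0.977), an X-linked gene, *Dmrta1* (0.975) and *Rxfp1* (0.969), the relaxin receptor. *Drd2* was most like *Pax7* (0.941), the melanotrope transcription factor, *Itga3* (0.940) and *Rnf43* (0.925). *Nmb* was most like *Slc9a9* (0.919), *Cst6* (0.913) and *Serpinb11* (0.902). The highest r for *Gal* was 0.910 (*Defb18*), then 0.894 (*Prss29*) and 0.892 (*Btf3*). For *Prlr* it was 0.861 (*Fut2*), 0.854 (*Ate1*) and 0.849 (*Smc5*), and for *Vip* 0.859 (*Rap1gds1*), 0.853 (*Lsamp*) and 0.851 (*Col16a1*).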

How the data were processed

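Libraries were made from whole pituitary RNA as stranded mRNA, 1 per mouse. After alignment to mm10 by MapSplice the authors assigned reads to UCSC genes by HTSeq 0.9.1 and deposited these raw counts. The strand setting is not given in the sources used here. The deposited table of normalized counts was not used. In R 4.3.3, genes kept by filterByExpr were scaled by TMM and tested with edgeR 4.0.16 (quasi-likelihood F test, Benjamini-Hochberg adjustment). Models held PSD, restraint and their interaction within each sex, with sex as a further term over all mice, and 1 mean per group for the controls and for differences between the sexes in response. Log2 CPM used a prior count of 2. The script was tested on simulated data. The members, lists and rules for naming genes were chosen with earlier results of these data known: all members are named, list genes where they are called, are a member's receptor or partner, or have an extreme value of their list, and for each member the 3 genes most like it. Alternatives included DESeq2 1.42.0 and the 2 scores named in the text. All 37 pairs of mice within groups differed beyond sampling noise. Sequences and starts come from RefSeq, with an entry for all 7 genes.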

Additional observations from a re-analysis of the deposited data

Results flagged for a closer look

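In 35 sets of 4 mice (7 genes in the 4 female groups and the male controls), the highest or lowest mouse was compared with the rest by Dixon's criterion, which flags about 1 in 20 such sets by chance, and 2 were flagged. PSD female 4 had 170264 CPM of *Prl*, far above the other PSD females. Male control 1 had 61.2 CPM of *Drd2* (61.1544), far below the other male controls, and this mouse also had the lowest sum of melanotrope markers. With the score of intermediate and posterior lobe genes as covariate the *Drd2* difference between the sexes was 0.18 (adjusted p = 0.0180).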

How the results depend on the processing

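Under DESeq2 the number of these genes called became 2 after PSD in females, 2 in females and 1 in males for PSD + restraint against restraint, 3 for the averaged PSD contrast in females (*Prl* added), 2 over all mice, 1 for its difference between the sexes and 3 in the home cage controls (*Vip* added). The count after PSD in females was 0 with the robust option, with the forebrain score and with the compared groups alone. It was 0 for PSD + restraint females with the lobe score, and the averaged contrast in females kept 1 gene with either score. Leaving out 1 mouse at a time gave 0 to 2 genes after PSD and 0 to 1 after PSD + restraint in females, 0 to 1 after PSD + restraint in males, 0 to 1 for PSD + restraint against restraint in females and over all mice, and for the averaged contrast 1 to 3 in females, 0 to 1 in males, 1 to 2 over all mice and 0 to 1 between the sexes.

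Of 126 member values, 32 changed sign with the lobe score, 9 with DESeq2, 7 with the forebrain score and 4 with the replicate block. Fitting without the filter on low counts changed the sign of 1, and leaving out 1 mouse that of 88 of 2688 values. None of these was called in the main fit, and only some are listed here. With the lobe score *Drd2* gave -0.28 and -0.10 after PSD + restraint, -0.090 and -0.18 after PSD and -0.074 and -0.042 for the averaged contrast, in females and males in that order, and *Prl* 0.018 in PSD + restraint females. DESeq2 gave -0.016 for *Drd2* and -0.00350 for *Gal* after PSD in males, and the cause was not tested. Leaving out 1 mouse gave -0.16 to 0.11 for *Drd2* after PSD in males, -0.090 to 1.04 for *Gal* in PSD + restraint against restrained males, -0.19 to 0.050 for the averaged *Prl* contrast in males, and for the difference between the sexes in *Nmb* -0.20 to 0.19 after PSD + restraint and -0.092 to 0.38 for the averaged contrast.

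With the replicate number as a block, *Nmb* in males was no longer called, at 1.52 after PSD + restraint (adjusted p = 0.0616) and 1.33 for the averaged contrast (adjusted p = 0.0829), so that 0 genes were called in each. *Prl* in females passed at -0.43 (adjusted p = 0.0277), making 3 genes for that contrast. Of 39 pairs of same-numbered mice within a sex, 4 had deviations that correlated above 0.1 (range -0.35 to 0.33, median -0.026). The labels do not say whether such mice shared more than a number, and this was not tested. Over all alternatives, 0 called values changed sign among the 126 member values refitted. The interaction, PSD + restraint against PSD and the averaged restraint contrast were not refitted.

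Groups of 2 to 4 mice, unstated oestrous stage and mixed cell types limit these values, and counts at the level of *Vip*, *Galr1* or *Nmbr* carry wide counting error.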
